A study of Homo with 2 samples.

Results

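The genes of sterol and fatty acid synthesis were described in human blastoids, as 31 genes taken by symbol from the 25556 genes present in both count tables. They comprise 18 sterol synthesis enzymes, 5 regulators and sterol carriers, and 8 fatty acid synthesis enzymes. The list was given by name, and no expression value of these tables entered the rule. Its members were nonetheless chosen with earlier results of these data known, so the list is not blind to them. All 31 genes had a row in both tables.

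The study grew blastoids, aggregates that resemble the blastocyst, from KhES1, an established line of human embryonic stem cells, and sequenced single cells of 2 libraries of 1 group. In both libraries the dissociated cells were aggregated for 24 h in AggreWell 400 microwells and the aggregates then kept for 4 days in a PNIPAAm-PEG hydrogel. The medium was high-glucose DMEM with 10% FBS and 10 µM Y27632, a small-molecule compound. A single line without a genetic change was used and no other medium or time point was analysed here, so the comparisons below are between groups of cells within the libraries.

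Cholesterol is built from acetyl-CoA through mevalonate, isoprenoid pyrophosphates, squalene and lanosterol, and the same acetyl-CoA feeds the synthesis of fatty acids. Both routes are switched on by the SREBP transcription factors, which SCAP carries out of the endoplasmic reticulum when membrane sterol is low and which INSIG proteins hold back when it is high. Rapidly dividing cells of the early embryo need both products for new membrane, and sterol also modifies Hedgehog ligands.

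Library 1 held 38665475 UMIs (unique molecular identifiers, counts of captured mRNA molecules) in 1988 barcodes, and library 2 had 45208758 UMIs in 2601. The cells used below number 933 in library 1 and 1516 in library 2, and their median depth was 35008 and 24998.5 UMIs. The libraries shared 1 barcode sequence among all barcodes and 0 among those kept. Separate cultures for the 2 libraries are not stated in the labels. The p-values then measure only how far differences between groups varied from one of these libraries to the other, which may be technical.

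Cells were clustered without the 31 genes and without the other lipid lists. The trophectoderm/amnion-like class, named for markers that the outer blastocyst layer and the amnion share, held 716 cells of library 1 (76.7%) and 926 of library 2 (61.1%). All 14 of its markers reached 10 CPM (counts per 1000000 UMIs of the same cells) in both libraries. So did 6 of 10 mesenchyme markers in each library. The 10 leading genes of each of its clusters held 0 markers of its own list. A small cluster of 48 and 84 cells (5.14% and 5.54%) matched the epiblast list best, with 11 and 12 of 12 markers at 10 CPM or more. Its 10 leading genes held 1 epiblast marker, ZIC2, but 2 markers of the primitive streak, MIXL1 and EOMES, so it is called here by its gene, the POU5F1-high cells. Another cluster of 24 and 57 cells is called PGF-high after the placental growth factor gene among its leading genes. It matched the syncytiotrophoblast list best, with 5 of 5 markers at 10 CPM or more in library 1 and 2 of 5 in library 2. Its 10 leading genes held 0 markers of that list. All 14 trophectoderm/amnion markers also reached 10 CPM in PGF-high cells of both libraries, and 10 and 11 of them in POU5F1-high cells. They summed to 6850 and 5730 CPM in PGF-high, 4890 and 5180 CPM in trophectoderm/amnion-like and 1310 and 1330 CPM in POU5F1-high cells.

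Transcripts of sterol synthesis were lower in the trophectoderm/amnion-like class than in the POU5F1-high cells, at almost every step of the route. The 18 sterol enzymes summed to 426.8 CPM in library 1 and 428.9 CPM in library 2 of the trophectoderm/amnion-like class. In the POU5F1-high cells the same sum was 1214 and 1404 CPM. The groups did not overlap, and the 2 libraries of the lower group lay close together.

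Of the 31 genes, 30 passed the filter on low counts in this comparison, 23 were called lower in the former class, and 7 were not called. Over all 12284 genes tested, 21.7% were called lower and 21.0% higher. No member was called higher by edgeR or by DESeq2, and none had an unadjusted p under 0.05 in that direction, against 25 in the lower direction. The median log2 fold change was -1.45 over the 30 genes and 0.00 over all genes tested. The sign was negative in each library on its own for 26 of the 30. These counts cover only genes that passed the filter, and MVK, mevalonate kinase, did not. It stood at 3.31 and 2.98 CPM in the trophectoderm/amnion-like class and at 3.79 and 7.82 CPM in the POU5F1-high cells.

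**Figure D1:**
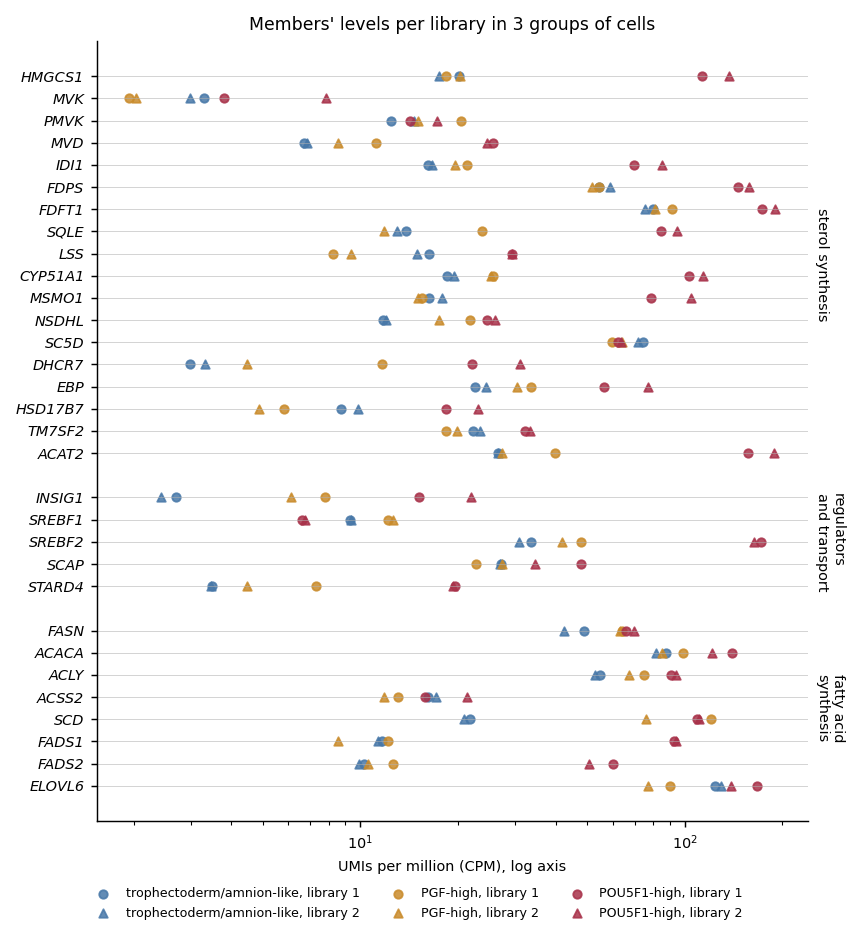
Level of each of the 31 genes in CPM (log axis) in 3 groups of cells, with circles for library 1 and triangles for library 2. POU5F1-high values (red) lie to the right of the trophectoderm/amnion-like values (blue) for most genes, with SC5D and SREBF1 the other way round. PGF-high values (orange) lie near the POU5F1-high ones at SCD, FASN, PMVK and SC5D, and above them at SREBF1. Positions of different genes on the axis are not to be compared as amounts.

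The first steps make mevalonate from acetyl-CoA. ACAT2, the cytosolic thiolase that makes acetoacetyl-CoA (chr6:159762045-159779112, GRCh38.p14), stood at 26.6 and 26.6 CPM in the trophectoderm/amnion-like class of libraries 1 and 2, and at 157.0 and 188.2 CPM in the POU5F1-high cells. Both POU5F1-high values were far above both others, and the fitted level was 6.12-fold lower in the trophectoderm/amnion-like class (log2 fold change -2.61, SE 0.18, edgeR adjusted p = 4.28e-16). Its locus overlaps the counted genes TCP1, SOD2 and SOD2-OT1, and the sources used here do not say whether counting used strand, so reads in the overlap cannot be assigned with certainty.

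HMGCS1, which adds the next acetyl unit to give HMG-CoA (chr5:43287470-43313412), was at 20.1 and 17.5 CPM against 113.4 and 137.1 CPM. No value of one group reached the other. The level was 6.08-fold lower in the trophectoderm/amnion-like class (log2 fold change -2.60, SE 0.22, edgeR adjusted p = 2.18e-13).

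The mevalonate-processing enzymes did not move as a block. MVD, which makes isopentenyl pyrophosphate, was lower by 3.49-fold (6.71 and 6.87 CPM against 25.6 and 24.6 CPM, edgeR adjusted p = 1.09e-06). PMVK, the phosphomevalonate kinase one step before it, was at 12.4 and 14.6 CPM against 14.2 and 17.2 CPM. These ranges overlap, and the log2 fold change of -0.07 (SE 0.30) had an edgeR adjusted p of 0.871. IDI1, the isopentenyl pyrophosphate isomerase, was 4.77-fold lower and FDPS, which makes farnesyl pyrophosphate, was 2.57-fold lower.

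Around squalene, all 3 enzymes were lower. SQLE, squalene epoxidase, stood at 13.9 and 13 CPM against 84.3 and 94.5 CPM in the POU5F1-high cells. The difference exceeded the spread between libraries many times over, at 6.53-fold (log2 fold change -2.71, SE 0.20, edgeR adjusted p = 4.78e-15). FDFT1, squalene synthase, was 2.30-fold lower with edgeR (adjusted p = 1.27e-06) but was not called by the DESeq2 Wald test (adjusted p = 0.0722). LSS, which closes the rings to lanosterol, was 1.83-fold lower (edgeR adjusted p = 0.00346) and lost the call against the SOX2-high sub-cluster of these cells alone (adjusted p = 0.131).

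After lanosterol, the enzymes that strip methyl groups were lower and those that move or reduce double bonds were mixed. CYP51A1, the lanosterol demethylase, was 5.94-fold lower, and MSMO1, the sterol methyl oxidase, 4.96-fold lower. NSDHL and HSD17B7, which complete the same demethylation, were 1.99-fold and 2.05-fold lower. HSD17B7 was not called by DESeq2 (adjusted p = 0.394) and NSDHL was not called against the SOX2-high sub-cluster (adjusted p = 0.192). The processed copy HSD17B7P2 was counted at 0.189 and 0.0458 CPM over all cells.

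The last enzyme of the route had the largest fold. DHCR7, the reductase that yields cholesterol (chr11:71427287-71449043), was at 2.99 and 3.32 CPM in the trophectoderm/amnion-like class and at 22.1 and 31.1 CPM in the POU5F1-high cells. The 2 groups were fully apart, with a 9.27-fold lower level (log2 fold change -3.21, SE 0.35, edgeR adjusted p = 3.97e-10). EBP, the sterol isomerase, was 2.90-fold lower.

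By contrast, SC5D, the desaturase that acts between EBP and DHCR7, was at 74.3 and 71.6 CPM in the trophectoderm/amnion-like class and at 62.2 and 63.7 CPM in the POU5F1-high cells. Its log2 fold change of 0.26 (SE 0.18) was positive in both libraries and not called (edgeR adjusted p = 0.268). TM7SF2, a sterol reductase, was at 22.2 and 23.3 CPM against 32.2 and 33.3 CPM. Its log2 fold change of -0.48 (SE 0.23) missed the threshold (edgeR adjusted p = 0.0837) and passed it in 4 of the 12 refits. In total, 14 of the 17 sterol enzymes tested were lower and 3 were not called, with a median log2 fold change of -1.53 (-1.33 in library 1 and -1.73 in library 2).

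**Figure D2:**
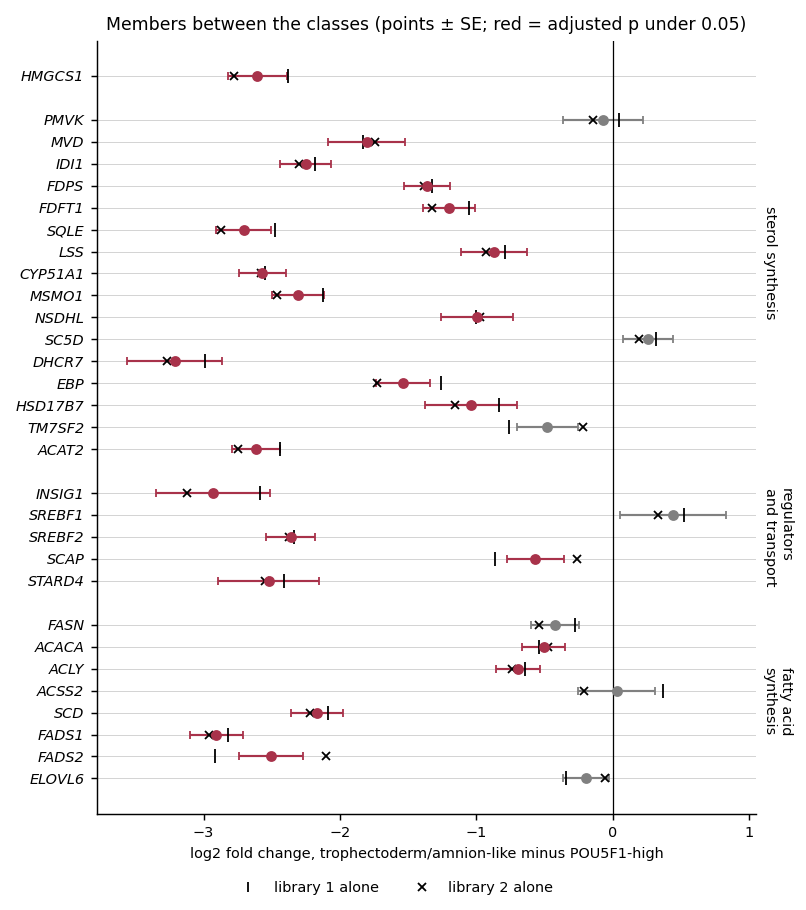
Log2 fold change of each of the 30 tested genes between the trophectoderm/amnion-like class and the POU5F1-high cells (points with standard error; red where the edgeR adjusted p is under 0.05), with each library's own value as a tick or cross. The red points lie between -3.21 (DHCR7) and -0.51 (ACACA), and the 7 grey points lie between -0.48 and 0.44.

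Of the 5 regulators and carriers, 4 were lower. SREBF2 encodes the SREBP form that acts mainly on sterol genes (chr22:41833105-41907305). It stood at 33.5 and 30.9 CPM in the trophectoderm/amnion-like class against 171.2 and 163.7 CPM in the POU5F1-high cells. The groups were apart and each was tight across libraries, with a 5.14-fold lower level (log2 fold change -2.36, SE 0.18, edgeR adjusted p = 9.65e-15). SREBF1, the gene of the forms that act more on fatty acid genes, did not follow: it was at 9.31 and 9.33 CPM against 6.63 and 6.74 CPM (log2 fold change 0.44, SE 0.39, edgeR adjusted p = 0.385).

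INSIG1, the SREBP target whose product retains SCAP (chr7:155297878-155310235), was at 2.70 and 2.43 CPM against 15.2 and 21.9 CPM. It was low in both libraries of the trophectoderm/amnion-like class, by 7.62-fold (log2 fold change -2.93, SE 0.42, edgeR adjusted p = 1.53e-07). STARD4, a carrier that moves sterol between membranes (chr5:111496033-111512535), was at 3.5 and 3.46 CPM against 19.6 and 19.3 CPM. Again no values overlapped (log2 fold change -2.52, SE 0.37, edgeR adjusted p = 3.13e-07), but against the SOX2-high sub-cluster alone the adjusted p was 0.0565. SCAP itself, the escort of the SREBPs, was at 27.1 and 26.9 CPM against 48.0 and 34.6 CPM. Its 1.48-fold difference (edgeR adjusted p = 0.0261) was not called in 4 of the 12 refits.

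The 8 fatty acid synthesis members divided by step. Among them, the desaturases differed strongly, while the enzymes that supply and build saturated chains differed little. Of 8 enzymes 5 were lower and 3 were not called, with a median log2 fold change of -0.60. The summed level was 375.5 and 365.5 CPM in the trophectoderm/amnion-like class and 740.7 and 700.5 CPM in the POU5F1-high cells. The division did not extend to genes outside the members. There the desaturase genes SCD5 and FADS3 were not called (log2 fold changes 0.63 and -0.97, edgeR adjusted p = 0.117 and 0.0709). ME1, SLC25A1 and MID1IP1 were called lower (-1.51, -0.84 and -1.27). Of the 22 tested genes in that list of other enzymes, 15 were not called.

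FADS1, a front-end desaturase of polyunsaturated fatty acids (chr11:61799627-61817003), was at 11.7 and 11.3 CPM against 92.9 and 94.1 CPM. Both groups were tight, and the level was 7.50-fold lower in the trophectoderm/amnion-like class (log2 fold change -2.91, SE 0.19, edgeR adjusted p = 1.43e-16). FADS2, which acts in the same chain of reactions (chr11:61816203-61867354), was at 10.2 and 9.88 CPM against 60.0 and 50.6 CPM. It was 5.69-fold lower (log2 fold change -2.51, SE 0.23, edgeR adjusted p = 4.46e-12). The annotated ends of FADS1 and FADS2 overlap on chromosome 11, so reads there could count for either gene.

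SCD, which puts the first double bond into saturated chains (chr10:100347233-100364826), was at 21.7 and 20.9 CPM against 109.0 and 110.6 CPM. Its 4.49-fold lower level had an SE of 0.19 on the log2 scale (log2 fold change -2.17, edgeR adjusted p = 1.18e-12). These 3 desaturases were apart without overlap in both libraries.

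The chain-building enzymes showed small differences. ACLY, which cuts citrate to cytosolic acetyl-CoA, was 1.62-fold lower (54.9 and 53.0 CPM against 90.7 and 94.1 CPM, edgeR adjusted p = 4.70e-04). ACACA, acetyl-CoA carboxylase, was 1.42-fold lower (edgeR adjusted p = 0.00866) and was not called when the filter on low counts was left out (adjusted p = 0.131). FASN, fatty acid synthase, was at 48.8 and 42.5 CPM against 65.7 and 69.8 CPM. FASN sat on the threshold: its log2 fold change of -0.42 (SE 0.18) had an edgeR adjusted p of 0.0502 and passed in 9 of the 12 refits. ELOVL6, which elongates palmitate, was at 124.3 and 129.1 CPM against 166.8 and 138.9 CPM (log2 fold change -0.20, edgeR adjusted p = 0.372). ACSS2, which makes acetyl-CoA from acetate, was at 16.1 and 17.1 CPM against 15.8 and 21.3 CPM, with overlapping ranges (log2 fold change 0.03, edgeR adjusted p = 0.941).

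Several other properties moved with this comparison. Cells of the POU5F1-high cluster were deeper, with medians of 55985 and 48942 UMIs against 37339 and 33391.5 UMIs. Cycling genes were lower in the trophectoderm/amnion-like class too, 9 of 12 (median log2 fold change -0.77), with sums of 1166 and 1152 CPM against 2020 and 1833 CPM. Of clusters 0, 1, 2 and 4 of that class, cluster 4 had most cycling RNA, with sums of 2706 and 2431 CPM, above the POU5F1-high cells. Its sterol sum was 441.8 and 456.7 CPM, near the whole class. The part of depth in the result was not tested, beyond the CPM scaling and the thinned counts per cell given next.

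At an equal depth of 20000 UMIs per cell, the sum of the 18 sterol enzymes had a median of 8 UMIs in trophectoderm/amnion-like cells of both libraries (637 and 764 cells of that depth). The 10th to 90th percentile range was 4 to 13 UMIs in both. POU5F1-high cells had medians of 20 and 22 UMIs, with ranges of 7 to 39.7 in library 1 (44 cells) and 9.4 to 43.6 in library 2 (65 cells). The POU5F1-high cells were thus both higher and more spread out, and their lower end overlapped the other class. Of the trophectoderm/amnion-like cells, 67.3% in library 1 and 34.3% in library 2 were at or above the 10th percentile of the POU5F1-high cells. The summed fatty acid enzymes had medians of 7 UMIs in both libraries of the trophectoderm/amnion-like class and of 15.5 and 14 UMIs in POU5F1-high cells.

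**Figure D3:**
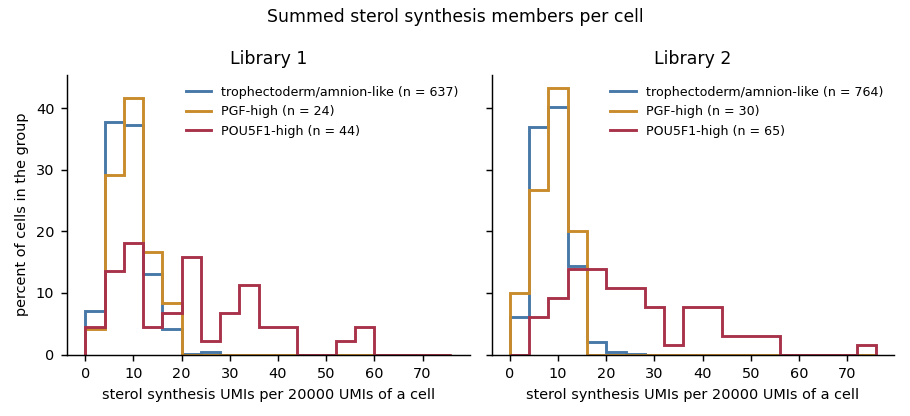
Percent of cells in each group by the summed UMIs of the 18 sterol enzymes per 20000 UMIs of a cell, in bins of 4 UMIs, for library 1 (left) and library 2 (right). Trophectoderm/amnion-like and PGF-high cells gather around their medians of 8 to 10 UMIs, while POU5F1-high cells spread from the same low values to above 40.

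The share of cells with at least 1 UMI was taken after thinning each cell to 5000 UMIs. Among trophectoderm/amnion-like cells, SREBF2 had a UMI in 14.7% in library 1 (95% exact interval 12.1 to 17.5) and 14.9% in library 2 (12.6 to 17.4). In POU5F1-high cells it was seen in 47.8% (32.9 to 63.1) and 48.2% (37.1 to 59.4). Without thinning, these shares were 58.9% and 53.3% against 95.8% and 86.9%. For ELOVL6 the thinned shares were 44.9% and 44.7% against 58.7% and 47.0%, with intervals that overlap. Neither class is known to lack these genes, so the level of free RNA in the droplets was not measured from them. Intervals cover counting error only.

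The POU5F1-high cells were themselves mixed, and their 3 sub-clusters were compared. The SOX2-high sub-cluster (15 and 45 cells) had sterol sums of 1058 and 1251 CPM. The GATA3-high sub-cluster (20 and 20 cells) had 1233 and 1533 CPM, and the TBXT-high sub-cluster (13 and 19 cells) 1346 and 1531 CPM. All 6 values lay above those of clusters 0, 1, 2 and 4 of the trophectoderm/amnion-like class in both libraries. GATA3 is a trophectoderm and amnion factor, and the sums of the GATA3-high sub-cluster were near those of the TBXT-high cells. Whether single cells carried both GATA3 and POU5F1 was not tested.

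Between GATA3-high and SOX2-high cells, edgeR called 0 of 30 members, where 7.61% of all 13087 genes tested were called. At an unadjusted p under 0.05 there were 5, all higher in GATA3-high cells (FDFT1, ACAT2, STARD4, ACLY and SCD). Between TBXT-high and SOX2-high cells 1 member was called (6.39% of all genes), SCAP, at 72.5 and 57.9 CPM against 40.04 and 32.9 CPM (log2 fold change 1.10, edgeR adjusted p = 0.0399). Between TBXT-high and GATA3-high cells 3 members were called (10.9% of all genes). FADS1 was higher in TBXT-high cells, at 146.4 and 135.9 CPM against 71.0 and 79.1 CPM (log2 fold change 0.95, edgeR adjusted p = 0.00434). SCAP was also higher (log2 fold change 0.95) and TM7SF2 was lower (log2 fold change -1.53).

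Against the SOX2-high sub-cluster alone, 12 sterol enzymes, 2 regulators and 4 fatty acid enzymes were lower in the trophectoderm/amnion-like class. Over all genes tested in that fit, 2315 were lower and 2421 higher. SREBF2 was highest in SOX2-high cells of library 1, at 195.2 CPM, and was 175.7 CPM in library 2. TBXT-high cells had 97.1 and 148.5 CPM, and the difference was not called. Its level in GATA3-high cells was 190.2 and 155.9 CPM, and all 6 values were above the highest value in those 4 clusters, 49.5 CPM.

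**Figure D4:**
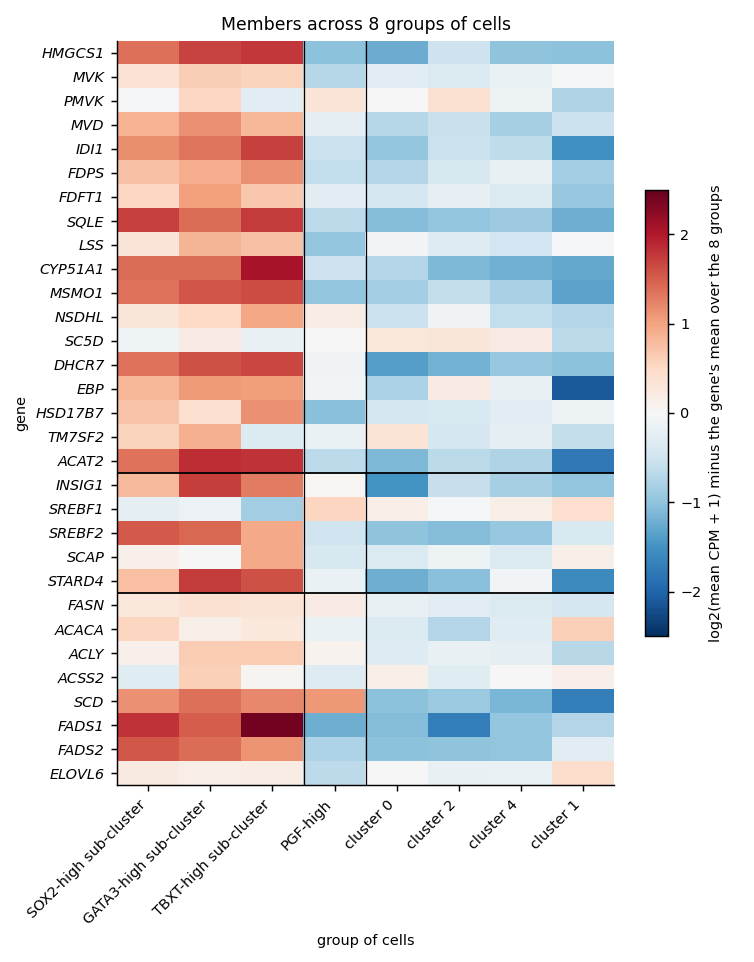
Level of each of the 31 genes in 8 groups of cells, as log2(mean CPM of the 2 libraries + 1) minus the gene's mean over the 8 groups (red above it, blue below). Horizontal lines part sterol enzymes, regulators and fatty acid enzymes, and the left 3 columns, the POU5F1-high sub-clusters, are red for most sterol enzymes. PGF-high cells are red at SCD, and cluster 1 is darkest blue at EBP, ACAT2, SCD, STARD4 and IDI1.

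PGF-high cells had sterol enzyme sums near those of the trophectoderm/amnion-like class, and more SCD. Their sterol sum was 482.6 and 428.1 CPM. SCD was at 120.8 and 76.0 CPM in PGF-high cells, against 21.7 and 20.9 CPM in the trophectoderm/amnion-like class. Both libraries were higher, by a log2 fold change of 2.26 (SE 0.21, edgeR adjusted p = 1.44e-11). Against the POU5F1-high cells, SCD differed by 0.09 on the log2 scale (SE 0.21, edgeR adjusted p = 0.772), with opposite signs in the 2 libraries (0.55 and -0.40). This comparison was added after the data had been seen, and it shares its reference cells with the comparison above.

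Of the 30 members tested between PGF-high cells and the trophectoderm/amnion-like class, 5 were higher, where 15.9% of all genes were called higher and 15.2% lower. None was called lower by edgeR, with 3 at an unadjusted p under 0.05. The 5 were SCD, INSIG1 (7.76 and 6.10 CPM, log2 fold change 1.89), DHCR7 (11.6 and 4.47 CPM, 1.63), CYP51A1 (25.7 and 25.2 CPM, 0.78) and FASN (64.0 and 63.0 CPM, 0.61). The share called is near that of all genes. The DHCR7 value differed between libraries, at log2 fold changes of 2.24 and 0.86.

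Between PGF-high and POU5F1-high cells 18 of 30 members were lower (17.2% of all genes) and 12 were not called (18.2% of all genes were called higher). For the members, none was called higher by edgeR, nor at an unadjusted p under 0.05. SCD thus parted from the other desaturases: FADS1 was at 12.1 and 8.54 CPM in PGF-high cells, with a log2 fold change of -3.08 (SE 0.30, edgeR adjusted p = 2.21e-11). FADS2 was at 12.6 and 10.6 CPM, with a log2 fold change of -1.97 (SE 0.33, edgeR adjusted p = 5.62e-06). ELOVL6 was at 89.7 and 76.8 CPM, below both other groups in both libraries, and was lower than in POU5F1-high cells by 0.61 on the log2 scale (edgeR adjusted p = 0.0139). PGF-high cells were deeper in library 1 than in library 2 (medians of 67694.5 and 31527 UMIs), and the part of this in the result was not tested.

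Within the trophectoderm/amnion-like class, sterol sums of its 4 larger clusters ran from 293.7 CPM (cluster 1, library 2) to 493.5 CPM (cluster 2, library 1). Each of clusters 0, 1, 2 and 4 was tested against the mean of the other 3, on 13773 genes. Cluster 9 of the class, with 3 and 18 cells, was below the minimum cell number and was not analysed on its own. Cluster 0, the largest (394 and 498 cells) and, of these 4, lowest in cycling RNA, had 2 members called, where 16.5% of all genes were. These were SC5D (log2 fold change 0.40) and TM7SF2 (0.87), both higher, and neither called between the classes.

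Cluster 2, led by the mitotic genes PTTG1, CDC20 and CCNB1, had 7 members higher (19.9% of all genes) and 1 lower (17.6%). EBP stood at 38.5 and 38.8 CPM there, against 18.8 and 19.1 CPM in cluster 0. Against the mean of clusters 0, 1 and 4, its log2 fold change was 1.63 (SE 0.24, edgeR adjusted p = 9.07e-07). INSIG1, PMVK, ACAT2, FDFT1, SC5D and ACLY were higher by 0.37 to 1.47 on the log2 scale, and ACACA was lower (log2 fold change -0.62). Cluster 4, led by TOP2A and histone genes, had 3 members called, all higher (8.36% of all genes): EBP (1.02), FDPS (0.47) and STARD4 (1.26).

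Cluster 1 had the most genes called over the whole table, 22.2% lower and 23.1% higher. Of the 31 members, 9 were lower and 2 higher, and nothing particular to the members is read from these counts. EBP was at 7.64 and 6.33 CPM (log2 fold change -2.81, SE 0.42, edgeR adjusted p = 8.36e-07), and PMVK at 9.43 and 6.33 CPM (-2.16). FDPS, FDFT1, SC5D, TM7SF2, ACAT2, ACLY and SCD were lower by smaller amounts, from -0.56 to -1.19. ACACA, at 157.2 and 160.1 CPM, and ELOVL6, at 169.8 and 188.3 CPM, were higher in cluster 1 than in each of clusters 0, 2 and 4 in both libraries. Their log2 fold changes against the mean of those clusters were 0.97 and 0.37.

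Cluster 1 stood apart in RNA quality measures. Ribosomal protein genes took a median of 1.47% and 1.49% of its UMIs, against 15.1% and 15.5% in the class, and mitochondrial genes 8.99% and 10.6%, against 6.25% and 6.18%. The cluster's part in the other contrasts was measured by leaving it out of the reference. Then 4 members were called in cluster 0 (18.8% of all genes): TM7SF2 higher, and EBP, ACAT2 and FDPS lower. In cluster 2 only EBP was called (17.3%), at a log2 fold change of 0.78 (edgeR adjusted p = 0.00307). In cluster 4 edgeR called 0 of 31 (9.42%), with 3 at an unadjusted p under 0.05. EBP was thus the 1 member higher in cluster 2 in both forms of the contrast. Without cluster 1, the comparison of the class with the POU5F1-high cells still had 14 sterol enzymes, 4 regulators and 5 fatty acid enzymes lower. Over all genes tested in that fit, 2555 were lower and 2662 higher.

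Across single trophectoderm/amnion-like cells the sterol enzymes hardly varied together. The Spearman correlation of each sterol enzyme with the sum of the others was taken in cells thinned to 20000 UMIs. Its median over genes in each library, averaged over the 2 libraries, was 0.035. EBP had 0.119 in library 1 but 0.012 in library 2, where PMVK had 0.076. These counts are sparse (DHCR7 had a UMI in 5.02% of those cells of library 1), the cells share 1 library, and a weak correlation in such counts is no finding. The sterol sum had correlations of 0.026 and -0.060 with the fatty acid sum, of 0.127 and 0.102 with the cycling sum, and of 0.105 and 0.150 with the cell's UMIs before thinning.

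The 10 other genes most like the sterol sum across these cells, by mean Spearman correlation over both libraries, were H3-3B (0.236), DBI (0.226), DYNLL1 (0.217), GSTP1, LDHB, HSPE1, RPL23A, RAN, PRDX1 and HSP90AA1 (0.212). DBI encodes a protein that binds acyl-CoA. Over the 9088 genes compared, the median was 0.001 and the 5th to 95th percentile range -0.095 to 0.130. The sum also correlated with the share of ribosomal protein UMIs (0.174 and 0.159) and inversely with the mitochondrial share (-0.148 and -0.174).

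Other genes of lipid metabolism were called in both directions in the comparison of the trophectoderm/amnion-like class with the POU5F1-high cells. Of 22 tested genes among other enzymes of these routes and the SREBP machinery, 4 were lower and 3 higher, with a median log2 fold change of -0.07. Over all genes tested, 21.7% were lower and 21.0% higher, and the counts of this list and of those that follow are to be read against these shares. ERG28, a scaffold of the sterol demethylation complex, was lower (23.4 and 26.4 CPM against 66.6 and 78.5 CPM, log2 fold change -1.48), as were ME1, which supplies NADPH, and MID1IP1, an activator of acetyl-CoA carboxylase. INSIG2, the second INSIG gene, was higher, at 19.2 and 20.4 CPM against 6.00 and 7.61 CPM. Its log2 fold change of 1.51 (SE 0.32, edgeR adjusted p = 1.56e-04) is opposite in sign to that of INSIG1. Of 12 genes of the branch to prenyl groups, dolichol and ubiquinone, 2 were lower (COQ2 and PDSS1, log2 fold changes -1.10 and -0.65) and 1 higher (DHDDS, 0.57).

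Genes of sterol uptake, efflux and lysosomal export moved in both directions, 6 higher and 4 lower of 15. ABCA1, the exporter of cholesterol to lipoproteins, was at 170.4 and 158.7 CPM in the trophectoderm/amnion-like class against 28.4 and 16.3 CPM in the POU5F1-high cells (log2 fold change 2.79, SE 0.22, edgeR adjusted p = 2.00e-14). ABCG1 and MYLIP, which are LXR targets like ABCA1, were higher by 2.55 and 1.21 on the log2 scale. They were named after their values were seen, and LXR targets were not tested as a set. APOE, also of this list, was not called (log2 fold change 0.38, edgeR adjusted p = 0.530).

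Lipoprotein receptors differed in opposite directions. LRP2 (megalin) was at 408.3 and 406.5 CPM against 18.3 and 17.2 CPM (log2 fold change 4.57). LRP8 was at 1.64 and 1.43 CPM against 69.8 and 61.5 CPM (log2 fold change -5.76). SCARB1, the receptor for high-density lipoprotein, was at 1.93 and 1.89 CPM against 23.4 and 17.6 CPM (log2 fold change -3.50). All 3 were apart in both libraries.

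Of 12 genes of fatty acid activation and storage, 3 were lower and 2 higher. FABP5, a fatty acid carrier, was at 43.5 and 39.9 CPM against 584.3 and 622.0 CPM (log2 fold change -3.82, SE 0.23, edgeR adjusted p = 9.07e-18). Of 13 genes of mitochondrial fatty acid oxidation, 4 were higher and 1 lower. CPT1A, which admits long chains to the mitochondrion, was lower (3.34 and 3.72 CPM against 19.9 and 17.6 CPM, log2 fold change -2.39). PPARA, a transcription factor of fatty acid oxidation, was higher (26.9 and 28.7 CPM against 8.53 and 9.56 CPM, log2 fold change 1.99).

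**Figure D5:**
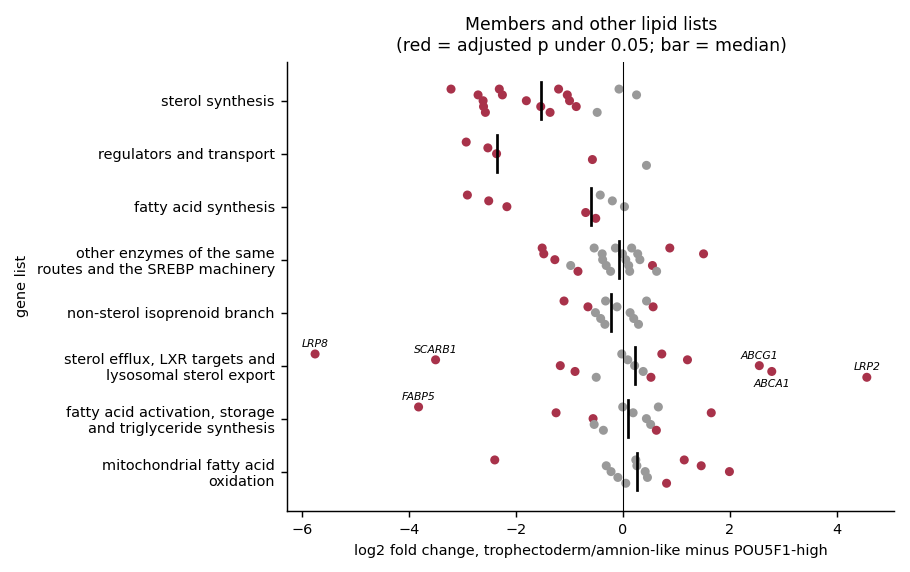
Log2 fold change between the trophectoderm/amnion-like class and the POU5F1-high cells for each gene of the 3 groups of members (top) and of 5 other lipid lists (red where the edgeR adjusted p is under 0.05, black bar at the list's median). The medians of the 3 member groups are -1.53, -2.36 and -0.60, those of the other lists lie between -0.22 and 0.26, and named genes differ by more than 2.4 on the log2 scale.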

How the data were processed

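Single-cell libraries were made with droplet 3′ chemistry, per the labels' protocols. Cell Ranger 9.0.0 and GRCh38 were used, per the submitters' processing notes. The authors deposited raw UMI counts by gene and barcode. Every barcode has at least 200 genes and every gene at least 2 barcodes. The members, lists and markers were chosen with earlier results of these data known.

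A barcode was kept (937 and 1519) if it had 1000 or more detected genes and no more than 20% mitochondrial UMIs. Scrublet, run in scanpy 1.11.5 at an expected 0.8% per 1000 barcodes, marked 4 and 3 doublets, which were removed; doublets of like cells stay in. UMIs were split at random into parts A and B. Part A, without the lipid lists, was clustered (2000 variable genes, 30 components, 15 neighbours, Leiden resolution 0.5, igraph 0.11.9). A cluster stayed unnamed if its median depth was under 1/3 of its sample's and its 10 leading genes held no such marker, or with under 3 markers detected.

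Part B sums per library and class, with at least 20 cells in both libraries (10 for sub-clusters), were compared in edgeR 4.0.16 (quasi-likelihood test with TMM scaling and filterByExpr; the library entered as a block; p-values were adjusted by Benjamini-Hochberg over all genes tested, at a threshold of 0.05). Libraries are the replicates, never cells, and the block pairs groups of the same library. In the class comparison, the shallow unnamed clusters 3, 6 and 8 entered the same fit and shared its estimate of the spread. The SE is the log2 fold change divided by the square root of F. CPM levels use all UMIs of a group. Shares used cells thinned to 5000 UMIs, leaving out 110 and 381 shallower cells, and correlations cells thinned to 20000. DESeq2 1.42.0 was an alternative. The test was tried on simulated data for the class comparison (10901 genes): of 90 genes with a 2-fold change edgeR found 66 (73.3%), of 106 with a 4-fold change it found 106 (100%), and it made 3 false calls.

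All members are named. Full statistics go to the largest called folds of each role group, up to 10 in all, and to members against their group. Other lists give up to 4 called genes at 10 CPM or more, and likeness the 10 highest genes with a UMI in at least 20% of cells. Positions are RefSeq genes of GRCh38.p14.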

Additional observations from a re-analysis of the deposited data

How the results depend on the processing

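Of 360 refitted single-gene results (30 members under 12 settings), 325 kept their direction and side of the threshold, 12 lost the call, 13 gained it and 10 changed sign. The sterol enzymes had 12 to 15 called lower under all 12 settings, and their median was -1.33 to -1.73 with 1 library left out. The regulators' median of -2.36 became -2.45 with DESeq2 size factors, -2.22 with no filter, -2.41 with another split, -2.32 with all UMIs, -2.17 with doublets kept, -2.43 at Leiden resolution 1.0, -1.39 against SOX2-high cells (2 lower), -2.32 without unnamed clusters and -2.45 in DESeq2, and -2.37 to -2.34 with 1 library left out. The fatty acid median of -0.60 became, for the same settings except resolution, -0.69, -0.46, -0.75, -0.64, -0.70, -0.43, -0.56 and -0.69, and -0.64 to -0.59 with 1 library left out. Sign changes were PMVK at 0.063 with no filter and 0.022 without cluster 1, SC5D at -0.015 and SREBF1 at -0.056 at resolution 1.0, and ACSS2 at -0.054 with DESeq2 size factors, -0.0056 without the block, -0.092 with another split, -0.11 with all UMIs, -0.25 with doublets kept and -0.027 in DESeq2. None of these 4 genes was called in any of those fits. With cluster 1 out of the reference, members called became 4 in cluster 0, 1 in cluster 2 and 0 in cluster 4. Without thinning, the median share of cells with a UMI was 42.1% in trophectoderm/amnion-like and 78.7% in POU5F1-high cells, against 8.42% and 22.4%. These shares are medians over members in each library, averaged over the 2 libraries. Over all genes, DESeq2 called 1671 higher and 2164 lower, against 2579 and 2671. The cause was not tested for any of these changes. Without the library as a block, 14 sterol enzymes, 4 regulators and 6 fatty acid enzymes were lower, where 2858 of all genes tested were lower and 2751 higher. Cells of equal depth were compared for sums and shares only, and MVK, INSIG1, STARD4 and DHCR7, under 4 CPM in the trophectoderm/amnion-like class, rest on the fewest UMIs per cell. The settings without unnamed clusters and without cluster 1 were chosen after seeing the data.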

Other observations

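Single genes of fatty acid storage differed in PGF-high cells. Of 12 tested genes of fatty acid activation and storage, 5 were higher than in the trophectoderm/amnion-like class and 7 were not called, where 15.9% of all genes were called higher and 15.2% lower. PLIN2, which coats lipid droplets, was at 585.4 and 813.1 CPM in PGF-high cells of libraries 1 and 2, against 62.5 and 61.1 CPM in the trophectoderm/amnion-like class and 46.7 and 74.1 CPM in POU5F1-high cells. Neither other group came near it (log2 fold change 3.58, SE 0.22, edgeR adjusted p = 8.75e-17, against the trophectoderm/amnion-like class). ACSL1, which activates long-chain fatty acids, was at 40.7 and 33.3 CPM against 6.55 and 5.18 CPM (log2 fold change 2.65, edgeR adjusted p = 3.89e-08). FABP5, the fatty acid carrier, was at 359.4 and 330.5 CPM against 43.5 and 39.9 CPM (log2 fold change 3.12, edgeR adjusted p = 1.73e-14). ELOVL5, an elongase of polyunsaturated chains, was at 163.0 and 184.6 CPM against 54.8 and 51.4 CPM (log2 fold change 1.81, edgeR adjusted p = 7.35e-12), and SCD5, the second stearoyl-CoA desaturase gene, at 1.94 and 0.407 CPM against 15.9 and 16.6 CPM (log2 fold change -3.54, edgeR adjusted p = 3.50e-05). These genes were named after their values were seen.

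In the shallow unnamed cluster 3 of library 1, 27 cells held 118 UMIs of the sterol enzymes, and 90 of them came from 1 barcode of 17718 UMIs. That barcode held 22 of the 25 HMGCS1 UMIs of those cells. The 350 cells of the same cluster in library 2 held 491 UMIs of the sterol enzymes, at most 12 of them in 1 barcode.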
